A study of Oryzias latipes with 20 samples.

Results

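The genes described here are dot1l, KDM6B and AUTS2, 3 of the 22615 genes measured in the brain of medaka (Oryzias latipes), a small freshwater fish. They were chosen from the measurements themselves, as chromatin genes whose mean level over 20 libraries and 7 sampling days was highest at day 7. The level by day is therefore given as a description, with no test. dot1l carries its own symbol in the deposited table (gene ID 101166952), whereas KDM6B and AUTS2 are listed by locus number, LOC101164833 and LOC101164758, and take their names from the protein descriptions in that table. The same table holds a second gene described as KDM6B and a gene with the symbol auts2, and these were not part of the choice. LOC101164758 is described as a homolog of the autism susceptibility gene 2 protein and is called AUTS2 here for short.

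All 3 genes are named for proteins that modify histones or belong to complexes that do. DOT1L methylates lysine 79 of histone H3 on the bodies of transcribed genes and is recruited there by partners such as AF9, ENL and AF10, which also bind the machinery of transcription elongation. KDM6B, also called JMJD3, removes methyl groups from lysine 27 of histone H3, the repressive mark laid down by Polycomb repressive complex 2 (PRC2). AUTS2 joins a variant form of Polycomb repressive complex 1 (PRC1) that in mouse brain is found at active genes with the acetyltransferase p300, and it is known from neurodevelopmental disorders in people. In reptiles whose sex depends on incubation temperature, KDM6B and the PRC2 partner gene JARID2 are both known for transcripts that change with temperature.

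The tissue was one block of ventral telencephalon with hypothalamus and pituitary, taken from fish held under a constant photoperiod. Libraries came from 7 groups, at 0, 7, 30, 60, 90, 120 and 150 days after a transition to conditions that the labels abbreviate as LW, an abbreviation they do not spell out. Each day had 3 libraries except day 60, which had 2. Whether the libraries of a day came from different fish is not stated in the labels, so spread and p-values refer to these samples. Nor do the labels give the strain, sex or age of the fish, the hour at which they were sampled, or any batch. Levels are FPKM, which divides the fragments of a gene by its transcript length and by the size of the library, so levels of different genes can be set side by side per length. Differences are on the log2(FPKM + 1) scale, and tests took in the 15947 genes that averaged 1 FPKM or more.

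The day 7 libraries had the lowest totals, while their marker sums overlapped the range of the other 17 libraries in each list with a matched marker. Total FPKM ran from 374770 to 378027 in the 3 day 7 libraries and from 383878 to 405678 in the other 17, without overlap. Neuron markers (6 of 7 found) summed to 1413 to 1683 FPKM at day 7 and to 1580 to 1772 FPKM in the other libraries. Hypothalamus markers (11 of 13) summed to 430 to 552 FPKM against 444 to 763 FPKM, ventral telencephalon markers to 326 to 358 FPKM against 303 to 379 FPKM, and oligodendrocyte markers (5 of 7) to 394 to 447 FPKM against 173 to 536 FPKM. Pituitary markers (8 of 11) summed to 739 to 1198 FPKM at day 7 and varied most elsewhere, from 157 to 4946 FPKM; the entry prl was under 1 FPKM. Microglia and leukocyte markers (2 of 6) summed to 81.8 to 148 FPKM at day 7 and 89.0 to 215 FPKM in the others, of which the 3 of day 0 had 175 to 215 FPKM and did not overlap day 7. Astrocyte and radial glia markers (5 of 6) summed to 1392 to 1736 FPKM at day 7 and 1416 to 2087 FPKM in the others, endothelial and mural markers (3 of 5) to 16.3 to 16.4 FPKM against 12.3 to 22.0 FPKM (16.9 to 17.9 FPKM at day 0, above day 7), and cerebellar markers (3 of 5) to 117 to 138 FPKM against 104 to 135 FPKM. Of the retina list only rho was found, at 0 in the day 7 libraries and up to 14.5 FPKM in the others, and no entry of the blood list was matched. Of 50 marker genes tested, 0 passed limma's test of day 7 against the other days, and 4 (8%) had an unadjusted p under 0.05, beside 0.107% and 11.7% of all genes tested. The part of total FPKM and of cell make-up in the results was not tested beyond the rescaled values given.

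dot1l stood at a similar level on most days and was highest at day 7. It measured 39.62, 38.46 and 39.44 FPKM at day 0, 60.25, 74.91 and 68.15 FPKM at day 7, 52.29, 45.44 and 40.67 FPKM at day 30, and 42.58 and 39.95 FPKM at day 60. It then measured 35.87, 37.1 and 38.71 FPKM at day 90, 38.78, 38.59 and 39.37 FPKM at day 120, and 36.71, 50.18 and 40.39 FPKM at day 150. The 3 day 7 libraries were above all 17 others, and the libraries that came nearest were replicate 1 of day 30 and replicate 2 of day 150. The day means in time order were 39.2 ± 0.624, 67.8 ± 7.34, 46.1 ± 5.84, 41.3 ± 1.86 (n = 2), 37.2 ± 1.42, 38.9 ± 0.407 and 42.4 ± 6.96 FPKM (SD, n = 3 unless stated). From high to low the order was day 7, 30, 150, 60, 0, 120 and 90. Of neighbours in that order, day 7 and day 30 did not overlap, nor did day 60 and day 0, while the others did.

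KDM6B was the most abundant of the 3 genes at day 7. It measured 49.27, 46.34 and 46.58 FPKM at day 0, 70.78, 91.89 and 73.69 FPKM at day 7, 55.38, 46.83 and 43.03 FPKM at day 30, and 38.41 and 34.99 FPKM at day 60. It then measured 37.06, 42.3 and 51.22 FPKM at day 90, 35.87, 40.48 and 33.83 FPKM at day 120, and 43.45, 48.48 and 41.9 FPKM at day 150. All day 7 libraries again lay above the other 17, while every library of days 60 and 120 lay below the 3 of day 0. The day means in time order were 47.4 ± 1.63, 78.8 ± 11.4, 48.4 ± 6.33, 36.7 ± 2.42 (n = 2), 43.5 ± 7.16, 36.7 ± 3.41 and 44.6 ± 3.44 FPKM (SD, n = 3 unless stated). On the log2 scale days 60 and 120 each differed from day 0 by -0.36. The order from high to low was day 7, 30, 0, 150, 90, 120 and 60, in which no neighbours except day 7 and day 30 were free of overlap.

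AUTS2 was the least abundant and had the tightest day 7 group. It measured 21.85, 22.8 and 23.51 FPKM at day 0, 37.26, 43.17 and 36.68 FPKM at day 7, 24.3, 27.44 and 21.54 FPKM at day 30, and 21.9 and 21.17 FPKM at day 60. It then measured 21.72, 28.2 and 25.75 FPKM at day 90, 22.13, 22.31 and 20.62 FPKM at day 120, and 26.33, 26.67 and 25.99 FPKM at day 150. The 3 day 7 libraries were apart from the rest, and among the rest the 3 of day 150 were close together and above all those of days 0, 60 and 120. The day means in time order were 22.7 ± 0.833, 39.0 ± 3.59, 24.4 ± 2.95, 21.5 ± 0.516 (n = 2), 25.2 ± 3.27, 21.7 ± 0.928 and 26.3 ± 0.34 FPKM (SD, n = 3 unless stated). The order from high to low was day 7, 150, 90, 30, 0, 120 and 60, and day 7 and day 150 were its only neighbours without overlap.

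**Figure D1:**
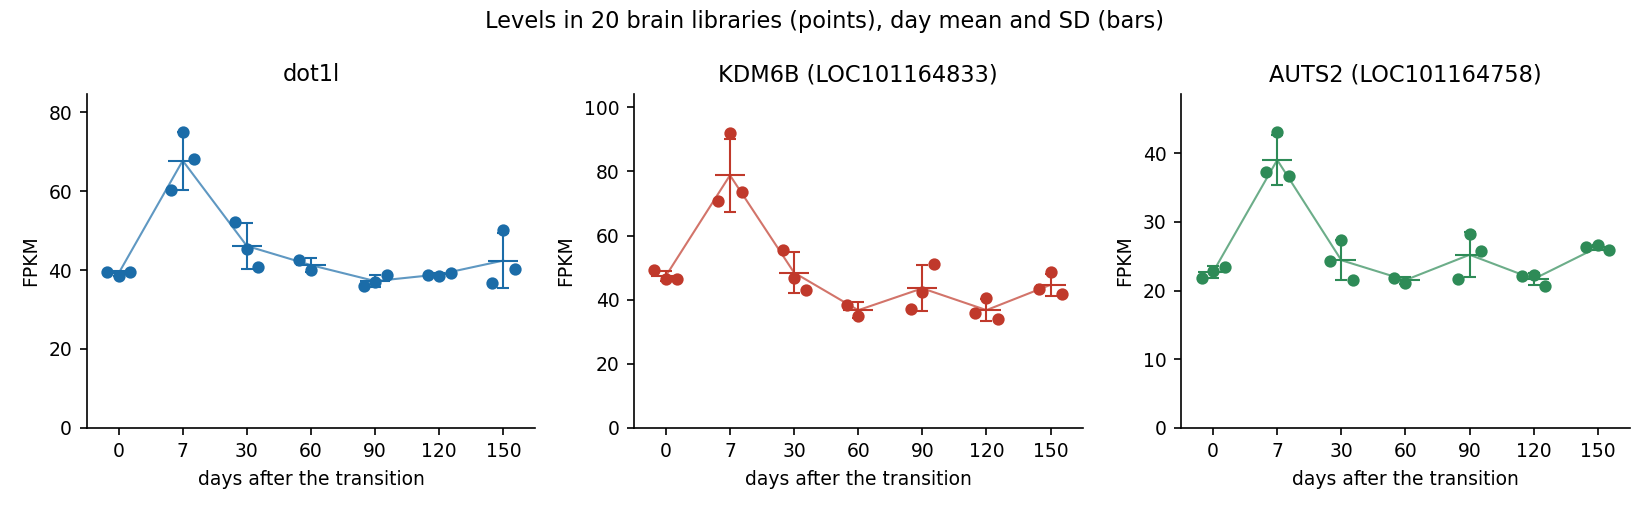
Level in FPKM (vertical axes, each from 0) of dot1l, KDM6B and AUTS2 in 20 brain libraries by days after the transition (horizontal axes); points are libraries, horizontal marks day means and bars SD. In each gene the 3 points of day 7 lie above all 17 others, with day means of 67.8, 78.8 and 39.0 FPKM.

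The size of the day 7 excess was similar in the 3 genes. The ratio of the day 7 mean to the day 0 mean was 1.73 for dot1l, 1.66 for KDM6B and 1.72 for AUTS2, and the log2 differences were 0.77, 0.71 and 0.75. Against the mean of the 6 other days the log2 difference was 0.72 for dot1l, 0.87 for KDM6B and 0.70 for AUTS2, where the spread within days was 0.13, 0.16 and 0.11 (SD, log2 scale). With every library rescaled to the same total FPKM these became 0.78, 0.92 and 0.76, with the same sign in all 3 genes. In a bulk sample such as this block, more RNA per cell and more cells of a type that expresses a gene cannot be told apart.

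After day 7 the genes were lower at day 30. Relative to day 30 the log2 difference of day 7 was 0.55 for dot1l, 0.69 for KDM6B and 0.66 for AUTS2. Day 30 itself differed from day 0 by 0.22, 0.02 and 0.09, where the SD among the day 30 libraries was 0.18, 0.18 and 0.17. In dot1l all 3 libraries of day 30 were above all 3 of day 0, while in KDM6B and AUTS2 these days overlapped. Replicate 1 of day 30 was the nearest library to the day 7 level in dot1l (52.29 FPKM beside a day 7 minimum of 60.25) and in KDM6B (55.38 beside 70.78), whereas in AUTS2 it was replicate 2 of day 90 (28.2 beside 36.68). The ratio of the lowest day 7 library to the highest of the 17 others was 1.15 for dot1l, 1.28 for KDM6B and 1.30 for AUTS2. These ratios held places 5, 4 and 3 among the 15947 genes, whereas by the size of the log2 difference the genes held places 105, 75 and 113. All 3 day 7 libraries were above the other 17 in 61 genes, 0.383% of those tested, and the mean was highest at day 7 in 14.3%; since the rule used these values, nothing is read from them about the 3 genes.

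The ratios of the 3 transcripts to each other, whose shared peak at day 7 was the ground of the choice, are given as a description. The ratio of AUTS2 to dot1l averaged 0.580, 0.578, 0.533, 0.522, 0.677, 0.558 and 0.631 over the 7 days in time order. That of KDM6B to dot1l averaged 1.21, 1.16, 1.05, 0.889, 1.17, 0.944 and 1.06. KDM6B to AUTS2 averaged 2.09, 2.01, 1.99, 1.70, 1.73, 1.69 and 1.69. At day 7 and day 0 the ratios were 0.578 ± 0.0401 against 0.580 ± 0.0249 for AUTS2 to dot1l, and 1.16 ± 0.0737 against 1.21 ± 0.0316 for KDM6B to dot1l (SD, n = 3 each). Relative to dot1l, KDM6B was lowest at days 60 and 120.

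The question of whether the 3 genes vary together can be put apart from the day pattern by using the deviation of each library from its day mean, which the choice of genes did not use. Within days dot1l and KDM6B moved together: Pearson's r was 0.71 over 20 libraries (exact permutation test within days, two-sided, p = 0.00143, adjusted over the 3 pairs 0.00428) and Spearman's rho was 0.72 (exact p = 0.00356, adjusted 0.0107). Both deviated in the same direction in 16 of 20 libraries, and r was 0.66 without replicate 2 of day 150 and replicate 1 of day 30, whose dot1l deviations lie farthest from the median of the 20. Among the other genes tested, 0.326% had as high an r to dot1l and 0.182% had as high an r to KDM6B. Leaving out any 1 library gave an r of 0.63 to 0.77, with exact adjusted p between 0.00251 and 0.0218.

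The pairs with AUTS2 were less clear. KDM6B and AUTS2 had an r of 0.56 (exact permutation p = 0.126, adjusted 0.188) but a rho of 0.68 (exact p = 0.0204, adjusted 0.0306), so the ranks passed the threshold and the values did not. They deviated in the same direction in 12 of 20 libraries, and r was 0.50 without replicate 2 of day 7 and replicate 3 of day 90. dot1l and AUTS2 had an r of 0.38 (exact permutation p = 0.195, adjusted 0.195) and a rho of 0.33 (exact p = 0.222, adjusted 0.222), with the same direction in 10 of 20 libraries and an r of 0.48 without the same 2 libraries as for dot1l and KDM6B. The libraries behind this differ by day: replicate 2 of day 7 was the highest of its day in all 3 genes, whereas replicate 1 of day 30 was highest in dot1l and KDM6B and replicate 2 of day 30 was highest in AUTS2. The differences among the 3 correlations were not tested.

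**Figure D2:**
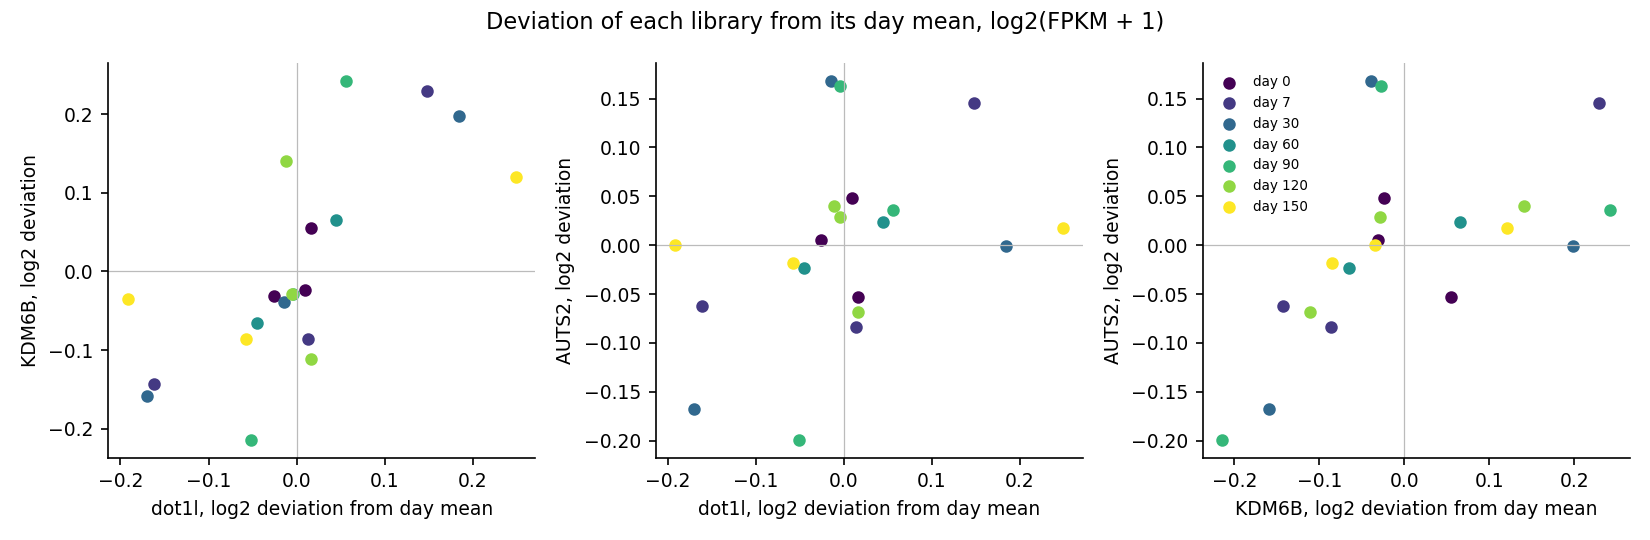
Deviation of each of the 20 libraries from its own day mean on the log2(FPKM + 1) scale, for dot1l and KDM6B (left), dot1l and AUTS2 (centre) and KDM6B and AUTS2 (right), coloured by day. The points follow a diagonal for dot1l and KDM6B (r = 0.71) and scatter more widely for dot1l and AUTS2 (r = 0.38).

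Medaka has a second gene described as KDM6B, LOC101160692, and the related demethylase kdm6a, also called UTX; both were chosen for comparison after the table had been seen, by description. The second KDM6B gene measured 12.41, 12.54 and 14.46 FPKM at day 7 and 11.51, 12.1 and 12.03 FPKM at day 0, with 9.78 to 14.11 FPKM and a median of 11.87 in the 17 libraries outside day 7. Its day 7 libraries overlapped the rest, and limma gave a log2 difference of 0.12 from the other days (adjusted p = 0.555). kdm6a measured 20.29, 16.77 and 19.73 FPKM at day 7 and 17.48, 16.61 and 19.16 FPKM at day 0, with a log2 difference of 0.14 from the other days (limma, adjusted p = 0.366). Neither passed the threshold. The ratio of KDM6B to its second copy was 6.04 ± 1.15 at day 7 and 3.99 ± 0.249 at day 0 (SD, n = 3 each), and the ratio to kdm6a was 4.23 ± 1.09 and 2.68 ± 0.216 on those days. The ratio to the second copy ran from 5.10 to 7.33 in the day 7 libraries and from 2.86 to 4.96 in the other 17, and the ratio to kdm6a from 3.49 to 5.48 and from 1.88 to 3.32, without overlap. KDM6B was chosen for its day 7 level, which carries over into both ratios, so nothing is read from this separation.

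Related to LOC101164758 are the gene listed under the symbol auts2 and fbrsl1, a gene of the same family. Whether LOC101164758 or auts2 corresponds to the AUTS2 gene of mouse and people was not tested. The ratio of LOC101164758 to auts2 lay between 1.33 and 1.71 in the 3 libraries of day 7 and between 0.989 and 1.01 in those of day 0. Over all libraries outside day 7 it ran from 0.850 to 1.36, and replicate 2 of day 90, the highest of them, was above 2 of the 3 day 7 libraries. auts2 measured 27.88, 25.24 and 27.52 FPKM at day 7 and 22.09, 22.74 and 23.17 FPKM at day 0, with 20.74 to 29.36 FPKM and a median of 23.34 outside day 7. Its day 7 libraries were above those of day 0 but overlapped other days, with log2 differences of 0.18 from the other days (limma, adjusted p = 0.365) and 0.24 from day 0 (adjusted p = 0.499). fbrsl1 measured 27.78, 26.89 and 29.2 FPKM at day 7 and 23.07, 26.56 and 25.09 FPKM at day 0, with a log2 difference of 0.10 from the other days (limma, adjusted p = 0.464). The differences of LOC101164758 and LOC101164833 from these related genes were not tested, because both had been chosen for their own day 7 levels.

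**Figure D3:**
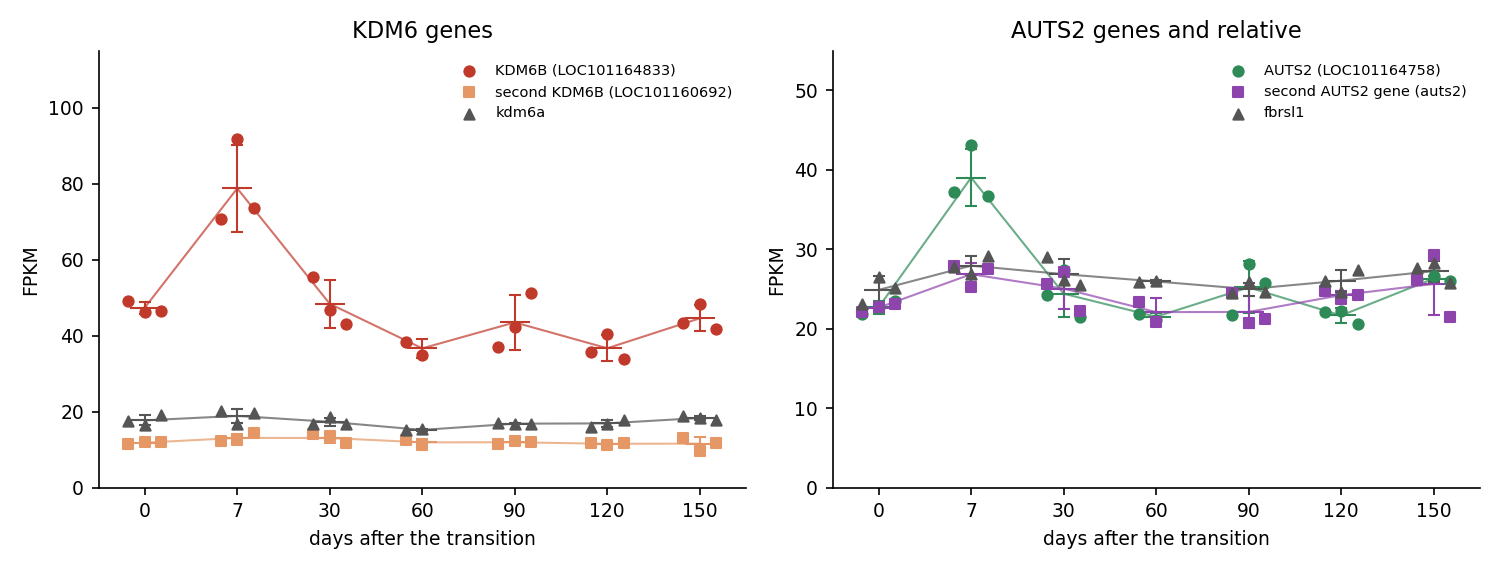
Level in FPKM by days after the transition of KDM6B, its second copy and kdm6a (left), and of AUTS2 (LOC101164758), the gene auts2 and fbrsl1 (right). Points are libraries, marks day means and bars SD. At day 7 KDM6B averaged 78.8 FPKM while its second copy and kdm6a averaged 13.1 and 18.9 FPKM, and AUTS2 averaged 39.0 FPKM while auts2 and fbrsl1 averaged 26.9 and 28.0 FPKM.

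Estimates for these loci can be affected by what lies beside them on the RefSeq assembly ASM223467v1, which was used for names and neighbours only. The KDM6B gene is overlapped there by LOC101159037, at 3.03, 5.49 and 3.58 FPKM at day 7 and 3.7, 2.18 and 2.27 FPKM at day 0, with a log2 difference of 0.52 from the other days (limma, adjusted p = 0.294). KDM6B was 13.3 to 25.1 times as high as this locus in every library, and whether they share reads was not tested. Next to KDM6B lie nlgn2, which encodes a synaptic adhesion protein, and LOC101159459, described as transmembrane protein 88. dot1l is overlapped by the long noncoding RNA LOC111947354, not used here, and lies by amh, the anti-Müllerian hormone gene, and ell, an elongation factor. AUTS2 lies between mrm1 and srcap. The neighbours amh and ell averaged 0.17 and 7.13 FPKM over the 20 libraries, and mrm1 and srcap averaged 1.93 and 9.98 FPKM, all below the genes they lie by. Beyond mrm1 lies chmp2a, which averaged 50.34 FPKM, above the 26.1 FPKM of AUTS2.

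Of all 15947 genes tested, jarid2 had the pattern most like that of the 3 genes, with a mean Pearson's r to them of 0.85 on log2(FPKM + 1) over the 20 libraries. jarid2 encodes a subunit that guides PRC2 to its targets. It measured 328.83, 413.76 and 319.5 FPKM at day 7, and from 81.41 to 199.91 FPKM with a median of 148.26 in the 17 other libraries. Every day 7 library was above every other one, by the widest margin of any gene tested, with a ratio of 1.60 between the lowest day 7 library and the highest of the rest. The day means in time order were 163, 354, 139, 124, 152, 121 and 139 FPKM. jarid2 rose at day 7 against the other days, by 1.37 ± 0.24 on the log2 scale (SE; limma, adjusted p = 0.0370), but it did not pass against day 0 alone (1.13, adjusted p = 0.217) or in the F test over all days (adjusted p = 0.155). The call against the other days was kept in 14 of 20 runs that left out 1 library. It was lost without replicate 1 of day 0, without any of the 3 replicates of day 7, without replicate 1 of day 60 and without replicate 3 of day 120, over an adjusted p range of 0.0167 to 0.170. Likeness to genes chosen for a day 7 peak favours high day 7 levels, so this call is a description and no independent support.

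The histone demethylase kdm7a, which removes methyl groups from lysines 9 and 27 of histone H3, came next in likeness with a mean r of 0.83. It measured 143.35, 231.03 and 148.92 FPKM at day 7, and 62.1 to 126.21 FPKM with a median of 88.85 in the 17 other libraries. Its day 7 libraries also cleared all others, and replicate 2 was the highest as in dot1l, KDM6B, AUTS2 and jarid2. Its log2 difference was 0.93 from the other days (limma, adjusted p = 0.0560) and 0.87 from day 0 (adjusted p = 0.201). Against the other days kdm7a passed the threshold in 4 of 9 alternative settings. It also passed in 4 of 20 runs that left out 1 library, where limma's adjusted p ran from 0.0416 to 0.220. Without the 3 day 7 libraries the mean r to the 3 genes was 0.50 for jarid2 and 0.55 for kdm7a over 17 libraries. All these correlations are descriptions, since the libraries of a day share their day and day 7 carries much of the range.

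The other genes of highest likeness included further chromatin factors and genes of other kinds. They were afdn, a protein of cell junctions (mean r = 0.81), the nucleosome remodeller CHD3, LOC101167742 (0.79), the SWI/SNF remodelling subunit smarcc1 (0.76), the oxysterol-binding protein OSBPL5, LOC101171478 (0.76), mucin-2, LOC101163418 (0.76), the microtubule protein CAMSAP3, LOC101159169 (0.75), zfr (0.75) and tox (0.74). smarcc1 measured 41.11, 40.3 and 37.95 FPKM at day 7, and 29.12 to 36.92 FPKM with a median of 32.64 elsewhere. CHD3 measured 17.46, 16.08 and 15.66 FPKM at day 7, and 12.47 to 14.87 FPKM with a median of 13.63 elsewhere. In 8 of the 10 genes of highest likeness all day 7 libraries were above the 17 others, mucin-2 and CAMSAP3 being the exceptions. Of all genes tested 0.383% had this pattern. Likeness to genes chosen for a day 7 peak selects for it, so nothing is read from the count. The differences of the genes listed here were small beside that of jarid2. Taken gene by gene, the list for KDM6B also held znf608, KMT2C (LOC101171448) and LOC101159037, and that for AUTS2 also held rybp. LOC101159037 is the locus that overlaps KDM6B, and whether its likeness comes from shared reads was not tested. Among the 3 genes themselves r over all 20 libraries was 0.89 for dot1l and KDM6B, 0.84 for dot1l and AUTS2, and 0.89 for KDM6B and AUTS2, values that hold the day 7 peak they were chosen for. To dot1l, afdn had an r of 0.889, just above the 0.885 of KDM6B, and OSBPL5 one of 0.877, above the 0.844 of AUTS2. Over the 17 libraries without day 7 the 3 values were 0.50, 0.24 and 0.54. There 505 other genes had a higher r to KDM6B than dot1l did, and to AUTS2 2976 had a higher r than dot1l and 243 a higher one than KDM6B.

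The opposite pattern, lowest at day 7, was led by ATAD1-A (LOC101175659, mean r = -0.81) and the kinase DCLK1 (LOC101167140, -0.81), then the translation initiation factor eif4a2 (-0.77), the ornithine decarboxylase antizyme 2 gene LOC101159818 (-0.76) and LOC101171714 (-0.76). eif4a2 measured 58.5, 55.62 and 51.22 FPKM at day 7, and 67.54 to 81.06 FPKM with a median of 73.06 in the other 17 libraries. It fell at day 7 against the other days, with a log2 difference of -0.41 (limma, adjusted p = 0.00438). In 3 of these 5 genes all day 7 libraries were below every other library, while ATAD1-A and the antizyme gene each had 1 day 7 library inside the range of the rest. The 5 were picked as least like genes chosen for a day 7 peak, which selects for low day 7 levels. The share of all genes with this pattern was not counted, so nothing is read from the count.

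**Figure D4:**
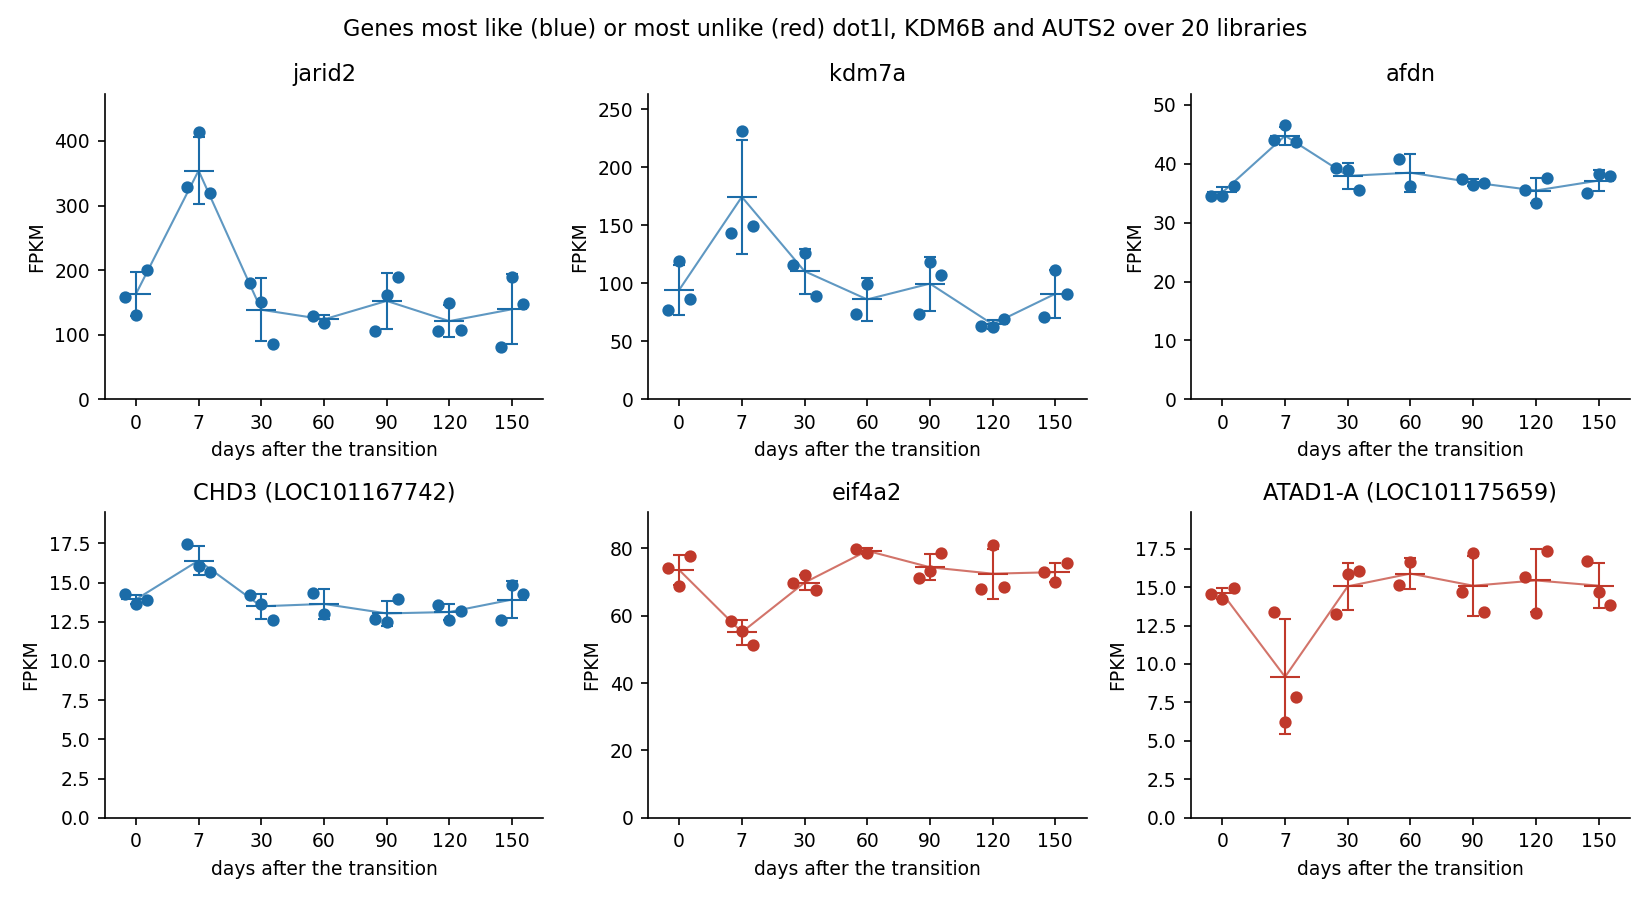
Level in FPKM by days after the transition of 4 of the genes most like dot1l, KDM6B and AUTS2 (blue) and 2 of the most unlike (red); points are libraries, marks day means and bars SD. jarid2 averaged 354 FPKM at day 7 and 121 to 163 FPKM on the other days, while eif4a2 averaged 55.1 FPKM at day 7 and 69.8 to 79.3 FPKM on the other days.

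The wider machinery around these proteins was read from 6 lists of chromatin genes, which hold 118 genes tested and none of the 3. In limma's tests over the whole table, 15 of 15947 genes changed over all days (0.0941%), 9 were higher and 1 lower at day 7 against day 0 (0.0564% higher), and 10 were higher and 7 lower at day 7 against the other days (0.0627% higher, 0.0439% lower). The 15 over all days, the 9 higher against day 0 and the 10 higher against the other days each include dot1l, KDM6B and AUTS2, from which nothing is read. Scaling moved the last split, to 42 higher and 8 lower with libraries rescaled to the same total, 16 and 6 with median-of-ratios size factors, and 20 and 7 with quantile normalization. None of the 118 listed genes passed the test over all days or against day 0. In these tests 22 and 24 of the 118 had an unadjusted p under 0.05, beside 2087 and 1423 of all 15947 genes (13.1% and 8.92%). jarid2 was the only listed gene to pass against the other days. There 31 of the 118 had an unadjusted p under 0.05, beside 1863 of all 15947 genes (11.7%). That call of jarid2 was lost without any 1 of 6 libraries named with it. With only genes averaging 5 FPKM or more, with median-of-ratios factors or with quantile normalization kdm7a and KMT2C joined it, and with rescaled totals rybp did too. Without a filter, and without replicates 1 and 3 of day 90, none passed.

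More of the listed genes were above the other days at day 7 than below them. The log2 difference from the other days was above 0 in 77 of the 118 genes, 65.3%, beside 44.9% of all genes tested, and its median was 0.06 beside -0.02. The mean was highest at day 7 in 44 of the 118, 37.3%, beside 14.3% of all genes. All 3 day 7 libraries were above the 17 others in 3 of them, jarid2, kdm7a and rybp, which is 2.54% beside 0.383%. The lists were chosen with earlier results of these data known, so these counts describe the lists and nothing more is read from them. They were not tested as sets, and the count above 0 depends on scaling. It was 95 genes with rescaled totals, 81 with median-of-ratios factors and 80 with quantile normalization. These scalings move all genes: the median of the lists and that of all genes were 0.11 and 0.04 with rescaled totals, 0.07 and -0.001 with median-of-ratios factors, and 0.07 and 0.002 with quantile normalization.

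Partners of DOT1L and elongation factors were evenly split. Of 20 such genes 10 were above 0 and 10 below, with a median log2 difference of -0.01 from the other days, and 2 (10%) had their highest mean at day 7. Among all genes tested 44.9% were above 0 and 14.3% had their highest mean at day 7. These shares also stand beside the counts of each list that follows. The genes with the smallest p over all days were ccnt2, a cyclin of the elongation kinase P-TEFb, mllt10, which encodes AF10, and mllt6, which encodes AF17. ccnt2 measured 25.27, 38.09 and 35.33 FPKM at day 7, and 22.46 to 38.9 FPKM elsewhere. mllt10 averaged 13.6 ± 1.76 FPKM at day 7 and 12.1 ± 0.786 FPKM at day 0, and mllt6 averaged 15.4 ± 0.752 FPKM and 12.7 ± 0.515 FPKM on those days (SD, n = 3 each). The highest day mean was at day 60 in ccnt2 (35.65 FPKM), at day 150 in mllt10 (14.1 FPKM) and at day 7 in mllt6. Their log2 differences from the other days were 0.27, 0.14 and 0.27 (limma, adjusted p = 0.363, 0.414 and 0.168), and none passed. A second cyclin-T2 entry, LOC101157196, had -0.02 (limma, adjusted p = 0.955). The AF9 and ENL genes, mllt3 and mllt1, had differences of 0.10 and -0.12.

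Among the genes of the H3K27 mark, which KDM6B removes, jarid2 was the only one to pass. Of 12 genes 8 were above 0, the median was 0.07, and 3 had their highest mean at day 7. The catalytic subunit ezh1 measured 71.67, 83.93 and 76.17 FPKM at day 7, and 66.72 to 81.11 FPKM elsewhere. Its relative ezh2 ranged from 4.65 to 6.83 FPKM outside day 7, and averaged 5.77 ± 0.522 FPKM at day 7 and 5.61 ± 1.06 FPKM at day 0 (SD, n = 3 each). The core subunits suz12 and eed had differences of -0.11 and -0.05, and neither passed. In the block as a whole jarid2, at a mean of 172.7 FPKM, was thus above the PRC2 subunits named here per length.

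Among the MLL/COMPASS genes, which methylate lysine 4 of histone H3, 11 of 16 were above 0, with a median of 0.06, and 8 had their highest mean at day 7. The smallest p over all days were those of KMT2C (LOC101171448), kmt2d and SETD1B (LOC101163909). KMT2C measured 18.34, 15.77 and 16.34 FPKM at day 7, and 12.08 to 16.42 FPKM with a median of 13.75 elsewhere. Its log2 difference was 0.28 (limma, adjusted p = 0.0605), and that of kmt2d, whose product also works beside the KDM6A demethylase, was 0.23 (adjusted p = 0.226). That of SETD1B was -0.18 (limma, adjusted p = 0.360), while a second SETD1B entry, setd1b, had 0.06 (adjusted p = 0.788).

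The longest list held relatives of AUTS2, PRC1 genes and the acetyltransferase genes for p300 and CREBBP, so it was not limited to partners of AUTS2. Of 34 genes 24 were above 0, with a median of 0.09, and 15 had their highest mean at day 7. rybp, which encodes a defining subunit of variant PRC1, measured 42.9, 50.3 and 38.23 FPKM at day 7, and 20.34 to 35.11 FPKM with a median of 28.46 in the other libraries. These groups did not overlap, and the log2 differences were 0.67 from the other days (limma, adjusted p = 0.0721) and 0.92 from day 0 (adjusted p = 0.121). The PRC1 subunit gene PHC1 (LOC101173875) and the corepressor gene bcor had differences of 0.13 and 0.18 (limma, adjusted p = 0.360 and 0.263). A second PHC1 entry, phc1, had -0.03 (limma, adjusted p = 0.929). pcgf3 and pcgf5, whose products form the variant complex with AUTS2, had differences of 0.17 and -0.07, and the catalytic subunits ring1 and rnf2 had -0.04 and -0.01, and none of these passed. A CBX8 gene, LOC101168624, named after its values were seen, measured 108.7, 112.31 and 266.08 FPKM at day 7, and 85.47 to 125.11 FPKM elsewhere, so that 1 library set its day 7 mean. Its log2 difference from the other days was 0.62 (limma, adjusted p = 0.193). The other CBX8 entries, LOC101160413 and cbx8, had -0.15 and 0.005 (limma, adjusted p = 0.634 and 0.991).

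Other histone lysine demethylases (10 of 17 above 0, median 0.04, 6 highest at day 7) and other methyltransferases (14 of 19 above 0, median 0.10, 10 highest at day 7) held kdm7a and otherwise smaller differences. The largest of the smaller ones were 0.38 for smyd3 and 0.26 for nsd2 (limma, adjusted p = 0.718 and 0.575). jmjd1c and kdm5a had log2 differences of 0.12 and 0.17 (limma, adjusted p = 0.295 and 0.336). The lysine 36 methyltransferase genes ASH1L (LOC101161417) and NSD1 (LOC101161079) had differences of 0.20 and 0.12, and the lysine 9 methyltransferase gene SETDB2 (LOC101163233) had -0.22 (limma, adjusted p = 0.290, 0.460 and 0.629). None of these passed.

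**Figure D5:**
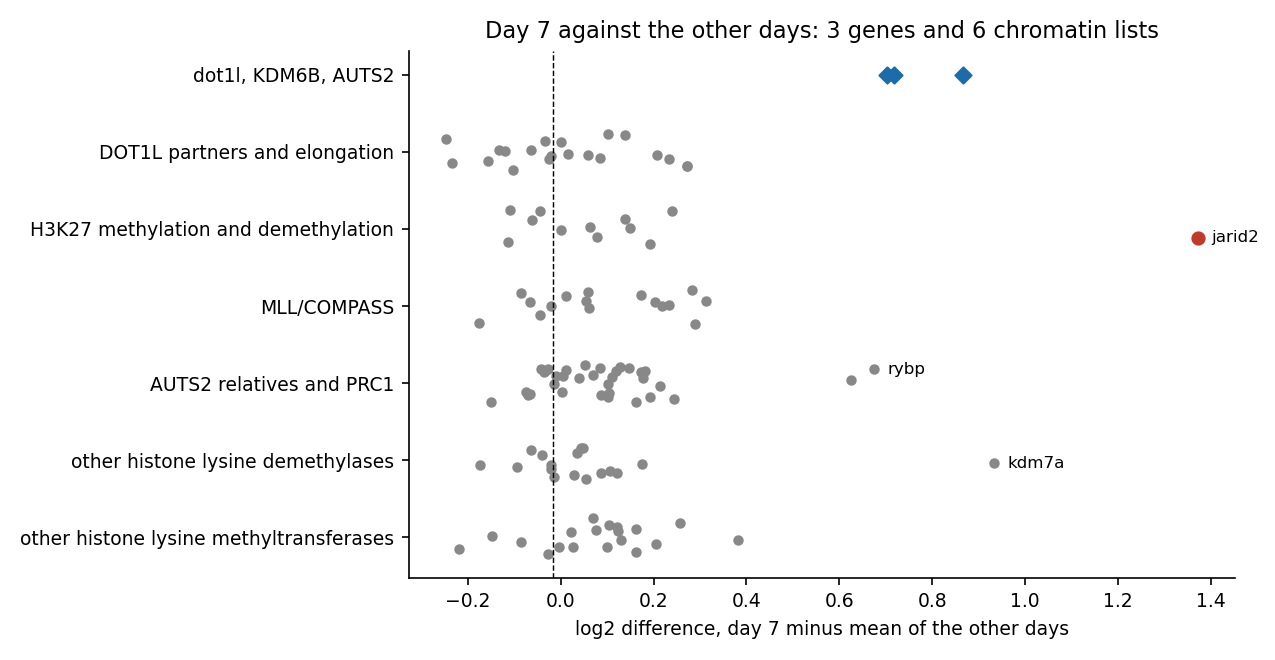
Log2 difference of day 7 from the mean of the other days (horizontal axis) for dot1l, KDM6B and AUTS2 (blue diamonds) and for the genes of 6 chromatin lists (points, red where past the threshold); the dashed line is the median of all genes tested, -0.02. Most listed genes lie between -0.2 and 0.4, while jarid2 (1.37) and kdm7a (0.93) lie above the 3 genes and rybp (0.67) just below them.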

How the data were processed

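Per the labels' protocols, total RNA was treated with DNase, enriched with poly-T beads and made into strand-specific paired-end libraries. The authors deposited 1 table of FPKM per gene and library, per the file headers. The submitters' processing notes name Bowtie2 (2.2.5) and RSEM (1.2.12). Neither genome build nor annotation is given in the sources used here. Depth is unknown, so its part in the precision, beside the number of libraries, cannot be judged. RSEM shares reads between near-identical copies. Days were taken from the labels, and replicate numbers were given in accession order.

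The 15947 genes that averaged 1 FPKM or more were tested with limma (3.58.1, R 4.3.3) on log2(FPKM + 1), which understates changes of low genes. 1 model with a mean per day and a prior variance trended on level gave the F test and both day 7 contrasts, two-sided, adjusted by Benjamini-Hochberg over all genes tested, threshold 0.05, with 13 residual degrees of freedom. It was tested on simulated data. The day contrast against other days uses the unweighted mean of 6 day means. Within-day correlations used exact permutation within days (93312 permutations). Tables and plots used Python 3.11.15, pandas 2.3.3, numpy 2.4.6, scipy 1.17.1 and matplotlib 3.10.9.

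The 3 genes and all lists were chosen with earlier results of these data known. Of 106 list entries all but 10 were matched by symbol, synonym or protein description, and 3 matched genes were under 1 FPKM. Named genes were the 3, the 5 with the highest correlation to each, the 10 highest and 5 lowest by mean correlation, and in each list those past the threshold or else the 3 with the smallest F test p; subunits beyond this rule (ezh1, ezh2, suz12, eed, mllt1, mllt3, pcgf3, pcgf5, ring1, rnf2) were named for their role, and 1 gene that the rule names is not reported here. The further entries setd1b, phc1, LOC101157196, LOC101160413 and cbx8, and the genes smyd3 and nsd2, were named after their values were seen. No 2 libraries held identical values. Alternatives were no filter, a filter at 5 FPKM, a pseudocount of 0.1, 3 other scalings, a prior without a trend, 2 pairs of libraries left out, and each library left out.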

Additional observations from a re-analysis of the deposited data

How the results depend on the processing

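The day 7 differences of dot1l, KDM6B and AUTS2 moved by less than the spread within days under all 9 settings and all 20 runs without 1 library. In those runs they were, against day 0, 0.70 to 0.85, 0.60 to 0.78 and 0.68 to 0.79 on the log2 scale, and against the other days from 0.64 to 0.80, 0.75 to 0.94 and 0.63 to 0.74. The within-day r of dot1l and KDM6B was 0.71 to 0.76 in 6 settings, with exact adjusted p of 0.000579 to 0.0397. The spread within days limits the rest, and counts of called genes moved. Leaving out 1 library gave 7 to 37 genes over all days, 1 to 8 higher and 0 to 3 lower against day 0, 5 to 19 higher and 2 to 11 lower against the other days, and 0 to 2 listed chromatin genes higher. Over all days 7 genes passed without replicate 2 of day 7, 24 without replicate 1 of day 60, 37 without replicate 2 of day 60 or of day 90, and 25 without replicate 1 of day 120. Against the other days 6 were higher without replicate 1 of day 7, 5 without replicate 2 or 3, 16 without replicate 3 of day 0, and 19 without replicate 2 of day 30. Listed chromatin genes numbered 2 without replicate 2 of day 0, 1 or 2 of day 30, 2 of day 60 or 2 of day 150. Against the other days there were 42 higher with rescaled totals, 16 with median-of-ratios factors and 20 with quantile normalization, of which 4, 3 and 3 were listed chromatin genes. Without a filter 4 were lower and 0 listed genes higher, and with a filter at 5 FPKM 11 were lower and 3 listed genes higher. A prior without a trend gave 4 lower, and leaving out replicates 1 and 3 of day 90 gave 4 lower and 0 listed genes higher. Against day 0, 2 were lower without a filter and 2 with the stricter one, while 0 were lower without a trend and 0 without those day 90 replicates. Leaving out replicate 1 of day 60 with replicate 2 of day 150 gave 25 genes over all days and 5 higher against day 0. The cause of these shifts was not tested. Promoter motifs were not run, as no sequence was used here. No paired analysis was possible because replicate numbers were given in accession order and pair nothing.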
